A study of Mus musculus with 30 samples.

Results

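The Hippo pathway was followed through 10 genes in mouse epiblast stem cells (EpiSCs) and in the definitive endoderm (DE) made from them: Yap1, Wwtr1, Tead1, Tead2, Tead3, Tead4, Lats1, Lats2, Amotl2 and Vgll4. The genes were taken by name from a list of pathway members, with earlier results of these data known. All 10 were found among the 29555 genes of the RNA tables. The C57BL/6 (B6) strain gave 5 RNA libraries of EpiSCs and 4 of DE, with 4 and 4 ATAC-seq libraries, which measure open chromatin. EpiSCs of PWK/PhJ gave 3 RNA and 2 ATAC libraries, EpiSCs of B6.129 F1 gave 3 RNA libraries, and EpiSCs of DBA/2J gave 1 of each kind. A further 3 RNA samples, PWK DE, were not analysed here. All EpiSCs, of passage p5-p10 like the DE, grew on feeder cells in a N2B27 medium with Fgf2, ActivinA and the Wnt inhibitor NVP-TNKS656, and were detached from the feeders with collagenase. The DE cells had CHIR99201 with ActivinA for 16 h and then ActivinA with LDN193189 for 24 h, within a protocol given as 46 h, and CXCR4+ cells were taken by magnetic sorting. The groups of B6 thus differed in medium, feeders and sorting as well as in cell state. The labels call the samples biological replicates without saying whether they were separate lines or cultures, so the p-values measure the spread between these samples.

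Hippo signalling is a kinase chain that holds growth in check. The kinases LATS1 and LATS2 phosphorylate the coactivators YAP (Yap1) and TAZ (Wwtr1) and so keep them out of the nucleus. In the nucleus YAP and TAZ bind DNA through the TEAD proteins, VGLL4 competes with them for TEAD, and AMOTL2 is an angiomotin that holds YAP in the cytoplasm and is itself a YAP target. In the early mouse embryo the pathway is known for separating trophectoderm from inner cell mass. Its activity is set mainly by phosphorylation and location of the proteins, which neither assay measured.

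Shown are promoters of the coactivators, Amotl2 and Tead3, where the letters marked in capitals lay inside the accessible region at the start. Tead2, Lats1, Lats2 and Vgll4 also had an accessible region near their start and are not shown. Sequences are from RefSeq (GRCm38.p6, the build called mm10 in the submitters' processing notes), each the 250 bases before an annotated start, read along the gene. The capitals mark the core letters of the TEAD element, CATTCC, or its complement GGAATG.
Yap1, chr9:8004597-8004846, minus strand: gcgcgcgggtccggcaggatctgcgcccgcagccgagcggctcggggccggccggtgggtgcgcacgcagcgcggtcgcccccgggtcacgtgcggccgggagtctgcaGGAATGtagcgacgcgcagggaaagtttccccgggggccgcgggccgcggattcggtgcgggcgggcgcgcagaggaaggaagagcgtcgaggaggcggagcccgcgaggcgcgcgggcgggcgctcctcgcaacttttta
Wwtr1, chr3:57575911-57576160, minus strand: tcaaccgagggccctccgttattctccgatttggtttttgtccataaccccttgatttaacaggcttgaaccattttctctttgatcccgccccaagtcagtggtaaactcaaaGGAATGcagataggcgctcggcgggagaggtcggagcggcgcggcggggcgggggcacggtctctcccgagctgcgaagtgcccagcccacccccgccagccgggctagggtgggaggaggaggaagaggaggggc
Tead3, chr17:28350806-28351055, minus strand: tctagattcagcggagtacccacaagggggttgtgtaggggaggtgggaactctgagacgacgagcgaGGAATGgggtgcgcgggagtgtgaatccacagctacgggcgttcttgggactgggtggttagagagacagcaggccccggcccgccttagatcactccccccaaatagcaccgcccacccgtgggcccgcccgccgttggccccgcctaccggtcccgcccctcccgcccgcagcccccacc
Amotl2, chr9:102717554-102717803, plus strand: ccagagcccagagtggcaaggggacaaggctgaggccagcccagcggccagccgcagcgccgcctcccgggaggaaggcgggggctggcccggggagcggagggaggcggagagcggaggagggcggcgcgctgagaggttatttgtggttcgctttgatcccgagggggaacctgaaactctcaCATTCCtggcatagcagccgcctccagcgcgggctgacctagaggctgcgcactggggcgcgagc
The letters began 141 bases before the start of Yap1, 136 before the farther start of Wwtr1, 182 before the farthest start of Tead3 and 65 before the start of Amotl2. These are the 4 genes where they lay inside the accessible region at the promoter in the peak table of EpiSCs and DE. Only such genes are shown, so this position is no separate result. In the peak table of EpiSC strains the match at Yap1 lay outside the start peak. A pair of further matches at Tead3, 123 and 114 bases before its second start, and the match at Vgll4, 82 bases before its start, lay outside the peak found there. Among the genes of this group with a promoter in the table, 5 of 8 had the letters in at least 1 window, and none was found in the windows of Tead2, Lats1 or Lats2. Over all windows of this length, both strands searched, 12.6% of 32851 had them, beside 7 of the 12 windows of these genes, some of which overlap. A match of 6 letters is a description of the sequence only.

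The RNA libraries held 22829536 to 66563933 counts in B6 DE and 24529054 to 29947841 in the EpiSCs of B6 and PWK, and the ATAC libraries of B6 held 3751526 to 7925265 in DE and 4006296 to 9311622 in EpiSCs. Of the state markers, 7 of 7 for endoderm rose in DE, among them Cxcr4, the gene of the receptor by which DE cells were sorted. Of 7 for EpiSCs 4 fell and 2, Otx2 and Fgf5, rose. The summed level of the EpiSC markers overlapped, at 3024 to 3999 CPM (counts scaled to library size) in DE and 2734 to 4229 in EpiSCs. Pou5f1, the core pluripotency factor on that list, stood at 1005 to 1374 CPM in EpiSCs and at 2.48 to 36.3 in DE, the highest being DE replicate 2. The summed level of 10 feeder fibroblast markers, collagens and Thy1 among them, was 61 CPM in EpiSC replicate 1, 414 in replicate 4, 1205 in replicate 44, 1269 in replicate 2 and 2821 in replicate 51. It was 58.2 to 71.4 CPM in 3 DE libraries and 238 in DE replicate 2, and 9 of the 10 markers were called lower in DE. It was 2248 to 3272 CPM in PWK, 140 to 222 in F1 and 1595 in the DBA library. Thy1 was at 0 to 0.15 CPM in DE. Of markers of other cell types, 2 of 3 tested for visceral endoderm (Apoa1 and Rbp4) rose in DE, with a summed level of 15.3 to 83.3 CPM against 1.24 to 4.44 in EpiSCs and Ttr at or under 3 counts in each library. Of 4 tested for trophectoderm 3 rose (Gata3, Krt7 and Eomes, the last also made in endoderm precursors), with 343 to 499 against 48.8 to 133 CPM. Of 4 tested for streak and mesoderm 3 fell and Mixl1 rose. The part of these cells in the results was not tested. In bulk RNA, fewer cells of a type and less RNA per cell cannot be told apart.

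Both coactivators, their partner genes Tead1 and Tead3, the kinase gene Lats1 and Amotl2 fell in B6 DE. In the edgeR quasi-likelihood fit over 14085 genes, with Benjamini-Hochberg adjustment and a call at an adjusted p under 0.05, 6 of the 10 genes were called lower in DE and none higher, also in DESeq2 and at an unadjusted p under 0.05. Calls were common in this comparison: 30.6% of all genes tested were called lower and 31.5% higher. The median log2 change of the 10 genes was -0.85, beside -0.01 over all genes tested. The libraries of DE and EpiSCs did not overlap for 5 of the 10 genes, as for 55.6% of all genes.

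Yap1, the pathway's main coactivator, stood at 254, 261, 240, 249 and 237 CPM in EpiSC replicates 1, 2, 4, 44 and 51. It stood at 45.4, 100.1, 57.4 and 78.7 CPM in DE replicates 2, 4, 44 and 51. Every DE library lay below every EpiSC library, and the EpiSC libraries were close together. The mean fell from 248 ± 9.76 (SD, n = 5) to 70.4 ± 24.1 CPM (SD, n = 4), a log2 change of -1.79 (SE 0.20, adjusted p = 3.84e-05). Wwtr1, which encodes the paralog TAZ, stood at 63.3, 67.2, 89.3, 89.4 and 106 CPM in the EpiSC libraries in the same order. Its DE values were 37.9, 53.4, 35.2 and 41.5 CPM. The groups were again separate, with EpiSC replicates 1 and 2 lowest among the EpiSCs, and the log2 change was -0.96 (SE 0.19, adjusted p = 0.00156).

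The fall of Wwtr1 was smaller than that of Yap1. The log2 ratio of Wwtr1 to Yap1 counts within a library was -1.61 ± 0.36 (SD, n = 5) in EpiSCs and -0.70 ± 0.31 (SD, n = 4) in DE. This is a shift of 0.91, or 1.87-fold toward Wwtr1 (two-sided exact permutation test, p = 0.0159, adjusted p = 0.0238 over the 3 ratios tested; the smallest p possible was 0.00794). Without DE replicate 2 the shift was 0.76 and the adjusted p was 0.0804.

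**Figure D1:**
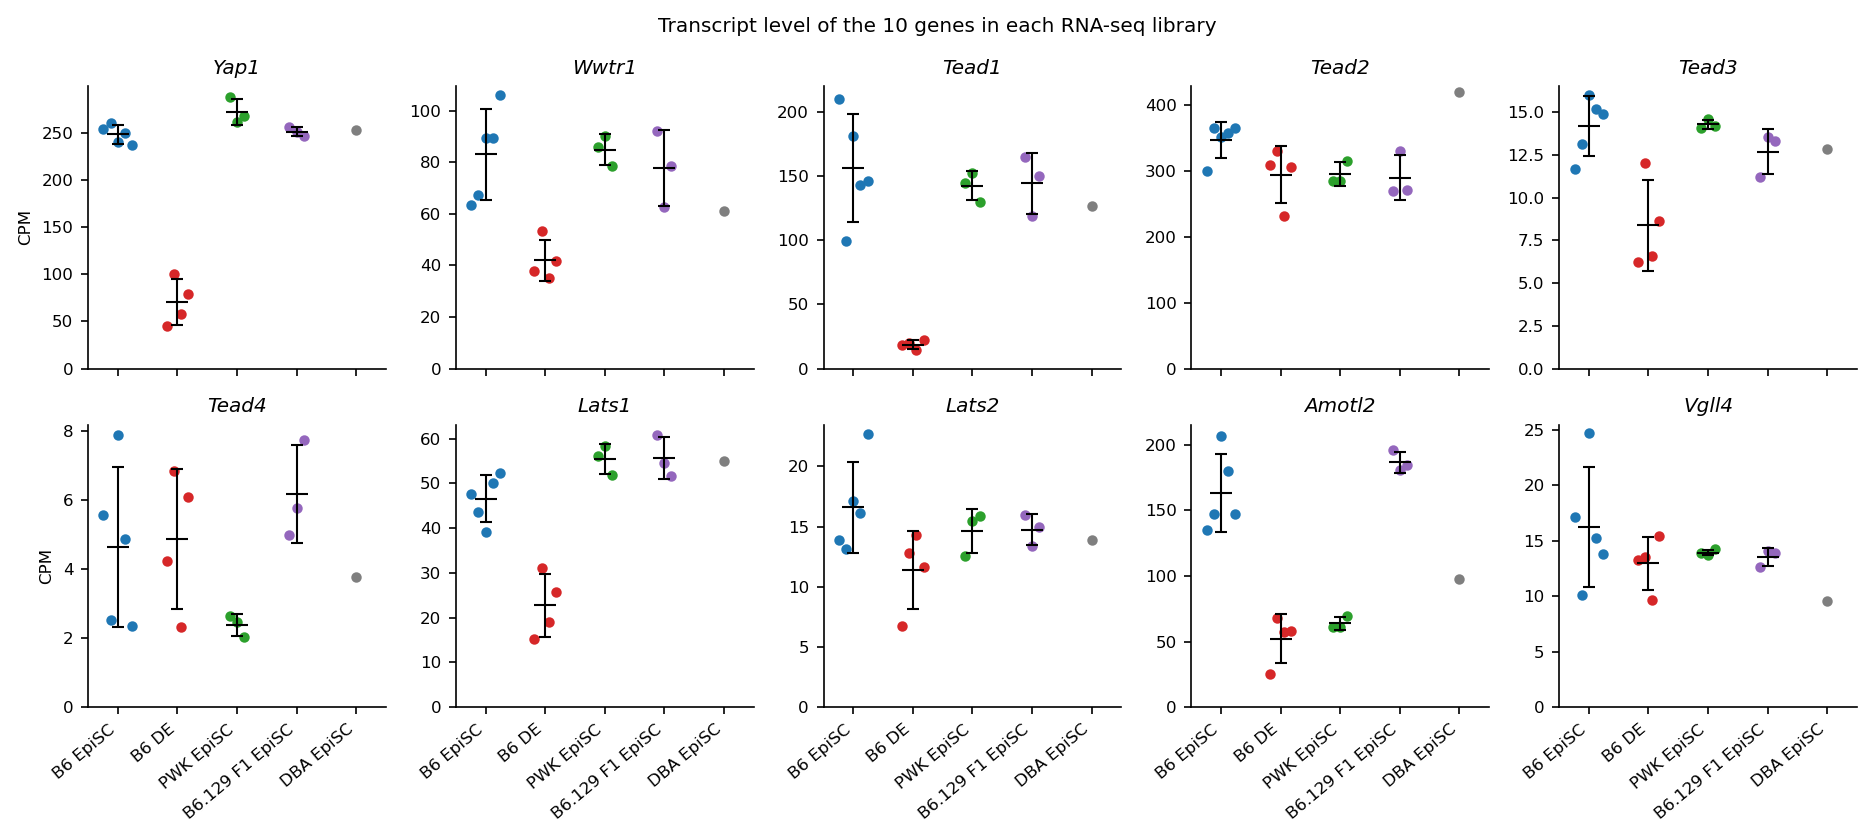
Transcript level of the 10 genes in CPM (vertical axes, from 0, a scale of its own for each gene) in every RNA library, by group on the horizontal axes; points are libraries and bars the mean ± SD. Yap1, Wwtr1, Tead1, Lats1 and Amotl2 in DE lie below every B6 EpiSC library, and Amotl2 in PWK lies between 60.7 and 69.8 CPM, near DE.

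The TEAD genes, which encode the DNA-binding partners, did not move together. Tead1 stood at 211, 99.6, 182, 143 and 146 CPM in EpiSC replicates 1, 2, 4, 44 and 51. In DE it stood at 18.5, 19.7, 14.5 and 22.1 CPM in replicates 2, 4, 44 and 51. The EpiSC libraries varied more than the DE libraries, yet every one stood far above them. Tead1 had the largest change of the 10 genes, a log2 change of -3.03 (SE 0.24, adjusted p = 3.87e-06), or 8.19-fold lower.

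Tead2, the TEAD gene with the most counts in both states, stood at 300, 364, 351, 356 and 364 CPM in the EpiSC libraries and at 308, 330, 231 and 306 CPM in DE. The groups overlapped, EpiSC replicate 1 falling among the DE values, and the log2 change of -0.21 (SE 0.14, adjusted p = 0.209) was not called. Tead3 stood at 11.7 to 16.0 CPM in EpiSCs and at 6.24, 12.0, 6.60 and 8.62 CPM in DE, a log2 change of -0.74 (SE 0.24, adjusted p = 0.0210). DE replicate 4 overlapped the EpiSCs, and the call was lost without DE replicate 44 (adjusted p = 0.0536). Tead4, known for its role in trophectoderm, was low in both states, at 2.34 to 7.89 CPM in EpiSCs and 2.32 to 6.85 CPM in DE, and its log2 change was 0.10 (SE 0.46, adjusted p = 0.868). Its SE was the widest of the 10, so a change of moderate size was not detectable.

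The ratio of Tead2 to Tead1 moved more than the other paralog ratios. The log2 ratio of counts was 1.19 ± 0.50 (SD, n = 5) in EpiSCs and 3.98 ± 0.13 (SD, n = 4) in DE, with no overlap. The shift of 2.79 (6.90-fold) had the smallest p that the exact permutation test could give, 0.00794, and an adjusted p of 0.0238. Leaving out DE replicate 2 gave a shift of 2.76 and an adjusted p of 0.0536; the groups were still separate, and with 56 permutations the smallest possible p, adjusted over 3 ratios, gave this value. As a share of all counts on the 4 TEAD genes, not corrected for transcript length, Tead1 was 29.7% ± 7.09 (SD, n = 5) in EpiSCs and 5.74% ± 0.48 (SD, n = 4) in DE, and Tead2 was 66.7% ± 7.17 and 90.3% ± 1.02. Tead3 was 2.72% and 2.56% and Tead4 0.88% and 1.45% of those counts.

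Of the kinases, Lats1 fell and Lats2 was not called. Lats1 stood at 47.7, 43.5, 39.2, 50.1 and 52.3 CPM in EpiSC replicates 1, 2, 4, 44 and 51 and at 15.3, 31.0, 18.9 and 25.8 CPM in DE replicates 2, 4, 44 and 51. The groups were separate, and the log2 change was -1.01 (SE 0.20, adjusted p = 0.00156). Lats2 stood at 13.9, 13.2, 17.1, 16.1 and 22.7 CPM in the EpiSC libraries and at 6.78, 12.8, 14.3 and 11.7 CPM in DE. DE replicate 44 lay within the EpiSC range, and the log2 change of -0.52 (SE 0.25, adjusted p = 0.0962) was not called. The shift of the Lats2 to Lats1 ratio, 0.51 on the log2 scale, did not pass the exact permutation test (p = 0.0794, adjusted p = 0.0794), so the test did not show that the kinases changed by unequal amounts. Without DE replicate 4 the shift was 0.60 and passed (adjusted p = 0.0357).

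Of the YAP inhibitors, Amotl2 fell and Vgll4 was not called. Amotl2 stood at 135, 147, 206, 180 and 147 CPM in EpiSC replicates 1, 2, 4, 44 and 51 and at 25.4, 68.0, 57.6 and 58.1 CPM in DE replicates 2, 4, 44 and 51. No DE library reached the lowest EpiSC library, DE replicate 2 was lowest of all, and the log2 change was -1.62 (SE 0.26, adjusted p = 0.000383). Vgll4 stood at 17.2, 10.1, 24.7, 15.3 and 13.8 CPM in the EpiSCs and at 13.3, 13.6, 9.67 and 15.4 CPM in DE, with the groups overlapping and a log2 change of -0.30 (SE 0.27, adjusted p = 0.363).

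The feeder marker level moved with this comparison, and its part in the differences was not tested as such. With the 2 EpiSC libraries of lowest feeder level alone, replicates 1 and 4, against DE, an alternative chosen after seeing the data, 5 of the 10 genes were called lower. The share of all genes called in that fit is not given here, so this count cannot be set against a background. The log2 change was -1.87 for Yap1, -0.92 for Wwtr1, -3.45 for Tead1, -0.99 for Lats1 and -1.77 for Amotl2. Tead3 was not called then (adjusted p = 0.130). EpiSC replicate 1, whose feeder sum was within the range of the DE libraries, stood at 254 CPM for Yap1 and 211 CPM for Tead1.

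**Figure D2:**
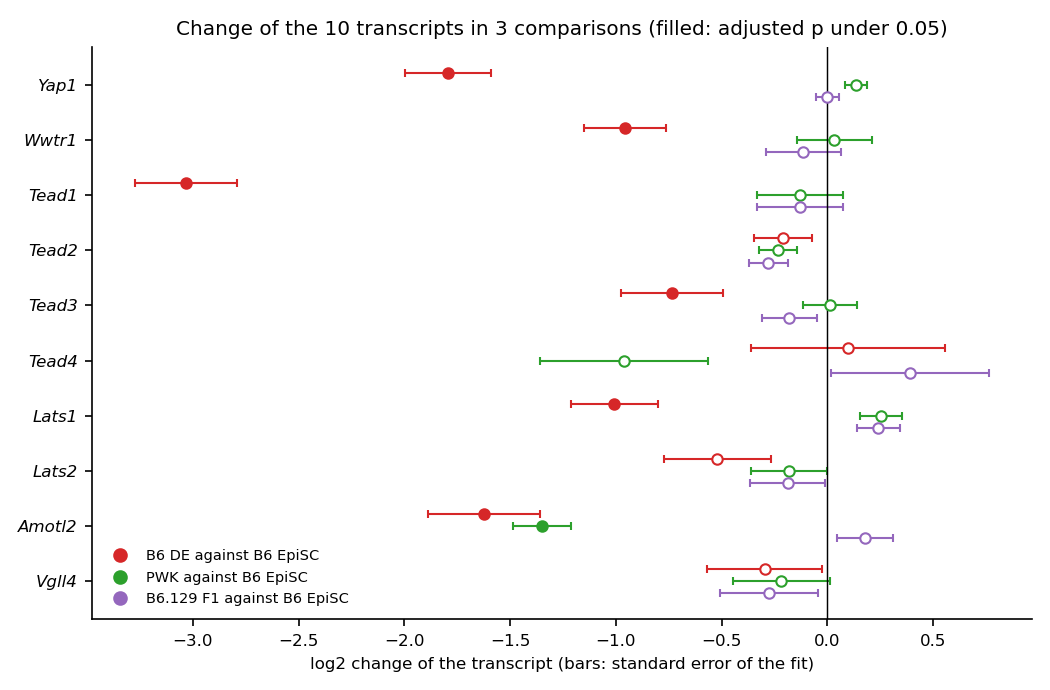
Log2 change of the 10 transcripts (horizontal axis) in B6 DE, PWK EpiSCs and B6.129 F1 EpiSCs, each against B6 EpiSCs, with the SE of the edgeR fit as bars and filled points for an adjusted p under 0.05. In DE 6 genes are filled, from -3.03 for Tead1 to -0.74 for Tead3; in PWK only Amotl2 is, at -1.35, and in F1 none.

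Upstream of LATS and beside it, 30 further pathway genes were counted: 28 were tested, 13 fell and 9 rose in DE, with a median log2 change of -0.44 beside -0.01 over all genes. Over all genes tested 30.6% fell and 31.5% rose, so the share that rose was near the background. The 5 that fell most included 2 giant cadherins, Fat4 at 0.12 ± 0.24 against 5.27 ± 3.28 CPM and Dchs1 with a log2 change of -2.12 (SE 0.36), which bind each other at cell contacts. Fat4 had no count in 3 DE libraries and 10 counts in DE replicate 2. Feeder markers were lower in DE too (9 of 10 called), and their part in the fall of Fat4 and Dchs1 was not tested. Sav1, the scaffold of the MST kinases, fell from 52.2 ± 4.07 to 6.65 ± 2.07 CPM (log2 change -2.94, SE 0.24). Ptpn14, a phosphatase that holds YAP back and is also a YAP target, fell by 3.78 (SE 0.42) on the log2 scale, and Map4k4, a kinase that can act on LATS, fell by 2.75 (SE 0.21).

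Among the genes that rose, Amot, the founding angiomotin, went from 399 ± 262 CPM in EpiSCs to 1437 ± 380 in DE, a log2 change of 1.87 (SE 0.51). It thus went the opposite way to its paralog Amotl2; the difference of these changes was not tested. Csnk1e, a casein kinase of the group that primes YAP for breakdown, rose by 1.15 (SE 0.16). Rassf1, a scaffold that binds MST kinases, rose by 1.03 (SE 0.18), Btrc, the ubiquitin ligase adaptor that recognises phosphorylated YAP, by 0.86 (SE 0.13), and Ywhaz, a 14-3-3 protein, by 0.74 (SE 0.15), all on the log2 scale. All 10 genes named here had an adjusted p under 0.05 in edgeR. With EpiSC replicates 1 and 4 alone, 10 pathway genes fell and 4 rose, and the share of all genes called in that fit is not given here.

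Of 23 genes known as YAP/TAZ targets in many cell types, 22 were tested, 12 fell and 3 rose in DE, and the median log2 change was -1.34, beside 30.6% lower, 31.5% higher and a median of -0.01 over all genes. Amotl2 and Lats2 are on this list as well, and Ajuba and Ptpn14 are on both lists. The summed level of all 23 targets overlapped between the states, at 943 to 1621 CPM in DE and 1031 to 1771 in B6 EpiSCs. The genes that fell most were Myof, a membrane repair protein, with a log2 change of -5.74 (SE 0.96); Nt5e, the ecto-nucleotidase CD73, with -4.63 (SE 0.50); Crim1 with -3.98 (SE 0.51); Ptpn14; and Ccn2 with -2.79 (SE 0.42). Ccn2, the matricellular protein CTGF, stood at 22.3, 41.1, 69.7, 78.8 and 61.4 CPM in EpiSC replicates 1, 2, 4, 44 and 51 and at 4.24, 8.35, 6.40 and 12.1 CPM in DE.

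Ccn1, its relative CYR61 and the other widely used target, went the opposite way. It stood at 299, 103, 407, 265 and 107 CPM in the same EpiSC libraries and at 686, 705, 1053 and 469 CPM in DE. No library of one group reached the other, and the log2 change was 1.65 (SE 0.42, adjusted p = 0.00602). Nuak2, a kinase of the AMPK family, rose by 1.86 (SE 0.29) and Tgfb2, a TGF-beta ligand, by 1.59 (SE 0.41) on the log2 scale. Several of these genes, such as Ccn2, Axl and Myof, are also expressed by fibroblasts. With EpiSC replicates 1 and 4 alone against DE, 10 targets fell and 2 rose, and the share of all genes called in that fit is not given here. Leaving out any 1 library gave 9 to 13 that fell and 3 that rose.

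**Figure D3:**
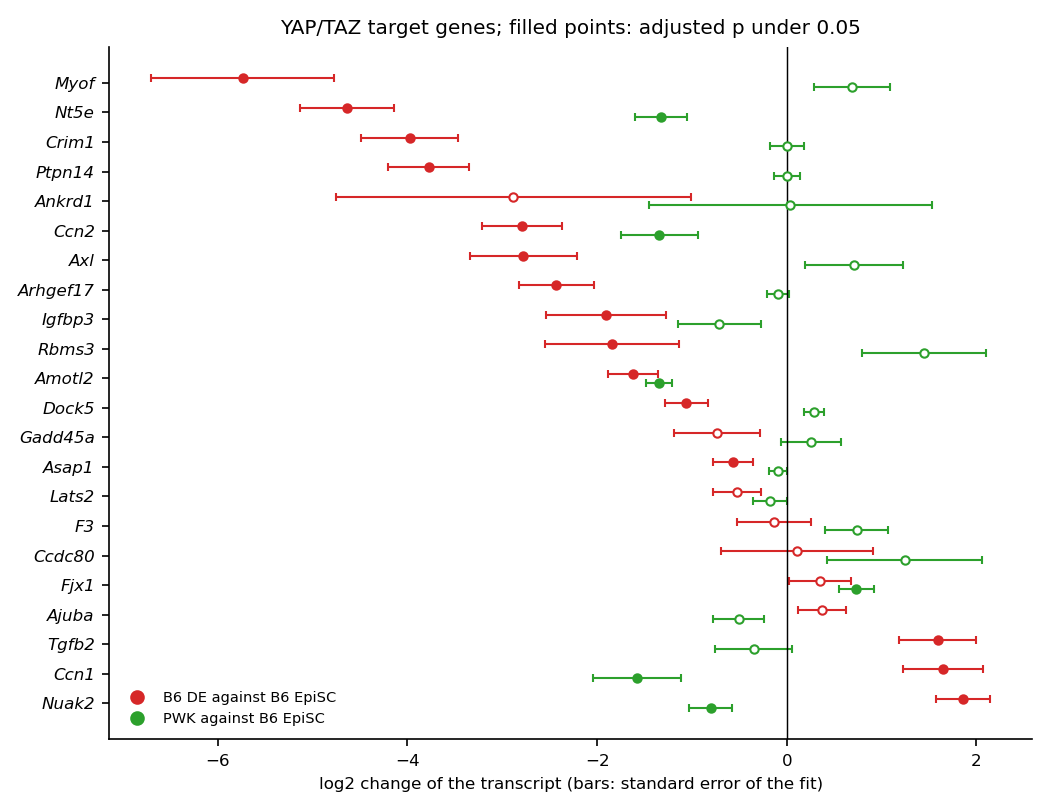
Log2 change of the 22 YAP/TAZ targets tested in B6 DE (horizontal axis), for B6 DE and for PWK EpiSCs, each against B6 EpiSCs, with the SE of the fit as bars and filled points for an adjusted p under 0.05. In DE 12 filled points lie below 0 and 3 above; Ccn1 and Nuak2 are above 0 in DE and below 0 in PWK.

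The EpiSC strains were compared next. In PWK against B6, fitted together with F1 over 14822 genes, 1 of the 10 genes was called, where 26.5% of all genes were called (14.5% lower, 12.0% higher), and 2 of the 10, Yap1 and Amotl2, did not overlap, as for 32.1% of all genes. This comparison shares the B6 EpiSC libraries with that of DE. The gene called was Amotl2, at 60.7, 61.4 and 69.8 CPM in PWK BioRep695, BioRep698 and the unnumbered library, against 135 to 206 CPM in B6. Every PWK library was below every B6 library and within or just above the range of B6 DE, and the log2 change was -1.35 (SE 0.14, adjusted p = 6.22e-05). The part of sequence differences between the strains in the RNA counts was not tested. Amotl2 was 180 to 196 CPM in the F1 libraries and 97.8 CPM in the DBA library, which lies below the B6 range.

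Yap1 was 288, 261 and 268 CPM in the PWK libraries, above the B6 libraries by a narrow margin, and its log2 change of 0.14 (SE 0.05, adjusted p = 0.0797) was not called. It was called with DESeq2, at 0.16 (adjusted p = 0.0156), as was Lats1, at 0.27 (adjusted p = 0.0436). When scaled by total library size, both were called too (adjusted p = 0.0207 and 0.0351). Leaving out B6 EpiSC replicate 1 added Tead2 as lower (adjusted p = 0.0172), replicate 2 or 51 added Tead4 as lower (adjusted p = 0.0345 without replicate 51), and replicate 51 added Lats1 as higher (adjusted p = 0.0382). Tead1 stood at 130 to 152 CPM in PWK and Wwtr1 at 78.4 to 90.3 CPM, both within the B6 range. The feeder level was high in PWK, and against the 3 B6 libraries of high feeder level alone, replicates 2, 44 and 51, an alternative chosen after seeing the data, Amotl2 kept its call (log2 change -1.31, adjusted p = 2.1e-05) and Tead2 was called lower (-0.30, adjusted p = 0.0253).

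Of the YAP/TAZ targets 5 were lower and 1 higher in PWK, beside 14.5% and 12.0% of all genes, with a median log2 change of -0.00 over the 23 tested. The lower genes were Ccn1 with -1.58 (SE 0.46), Amotl2, Ccn2 with -1.34 (SE 0.40), Nt5e with -1.33 (SE 0.27) and Nuak2 with -0.80 (SE 0.23), and the higher was Fjx1, a Golgi kinase, with 0.73 (SE 0.18). Ccn1 stood at 88.0, 88.1 and 60.8 CPM in PWK against 103 to 407 in B6. Leaving out PWK BioRep695, BioRep698 or the unnumbered library left 2 lower targets each, and leaving out B6 EpiSC replicate 4 or 44 left 3. Without B6 EpiSC replicate 51, 5 targets were higher, and without the unnumbered PWK library none was.

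Of the 28 other pathway genes tested, 6 were higher in PWK and 2 lower, beside 12.0% higher and 14.5% lower of all genes. The feeder marker level was 2248 to 3272 CPM in PWK against 61 to 2821 in B6, and its part in these counts was not tested. Fat4 had the largest change, at 15.5 ± 1.98 (SD, n = 3) against 5.27 ± 3.28 CPM (SD, n = 5), a log2 change of 1.56 (SE 0.39, adjusted p = 0.0138). Dchs1 was higher by 0.88 (SE 0.26) and Mob1b by 0.54 (SE 0.17), and Nf2, the tumour suppressor Merlin, was lower with a log2 change of -0.25 (SE 0.06). The count of higher genes fell to 1 without PWK BioRep695, to 2 without PWK BioRep698 or the unnumbered PWK library, and to 3 without B6 EpiSC replicate 44, F1 replicate 4 or the unnumbered F1 library. The count of lower genes was 1 without B6 EpiSC replicate 44, F1 replicate 4, the unnumbered F1 library, PWK BioRep698 or the unnumbered PWK library.

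In B6.129 F1 none of the 10 genes was called in edgeR, where 2.84% of all genes were (1.34% higher, 1.50% lower); 2 had an unadjusted p under 0.05, and DESeq2 called 1, Tead2, at -0.27 (adjusted p = 0.0315). The edgeR fit called Tead2 as well without B6 EpiSC replicate 1 (adjusted p = 0.0303). Of the pathway genes Fat4 alone was called, lower with a log2 change of -2.58 (SE 0.47), opposite to PWK, and of the targets Asap1 alone, lower with -0.50 (SE 0.10). Without the unnumbered F1 library, and in a fit of F1 and B6 alone, 0 genes of the whole table were called, these included. F1 libraries had 0.81 to 1.04 CPM of Fat4 where B6 had 2.55 to 10.6, and the feeder level was low in F1 as well; its part was not tested. With 1 DBA library there is no test: Wwtr1 (61 CPM), Amotl2 (97.8) and Vgll4 (9.60) stood below the B6 range and Tead2 (419) and Lats1 (55.1) above it, and none differed from the B6 mean by more than 1 on the log2 scale, as did 7.94% of 12772 genes.

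The genes most like Yap1 over the 16 RNA libraries, by Pearson correlation of log2 CPM, were Kpna6 (0.998), an importin, Arhgap21 (0.996) and Med12 (0.995), a Mediator subunit. Those most like Wwtr1 were Fosl2 (0.952), an AP-1 factor, Tmcc3 (0.945) and Arhgap31 (0.943). Of the other genes of the set, Yap1 followed Lats1 (0.967) and Tead1 (0.954) most closely and Tead4 (-0.07) least. These values share 4 DE libraries that stand far from the rest and are given as descriptions.

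Chromatin accessibility around the 10 genes changed in both directions. In or within 10 kb of the genes lay 128 peaks of the EpiSC and DE table, and 111 had enough reads to test. Of these 31 were called higher and 34 lower in DE, 58.6% in all, beside 57.6% of all 113870 peaks tested (32.6% higher, 25.0% lower). The share was thus near the background. Scaling by total library size, which moved the median log2 change of all peaks from -0.01 to -0.22, called 25 of these peaks higher and 43 lower. Around Lats2 and Amotl2 no peak was called higher, with 4 of 7 and 3 of 7 called lower, and around Yap1 5 of 11 were higher and 2 lower. Tead1, whose transcript fell most, had 8 peaks higher and 7 lower of 25 tested.

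Of the genes whose transcripts fell, Yap1, Wwtr1, Lats1 and Amotl2 had no call at the peak nearest their start; Tead3 is given further on, and the start of Tead1 is not in the table used here. The promoter peak of Yap1, chr9:8004613-8004802, which holds the GGAATG shown above, had 5.82 ± 2.76 CPM in DE and 4.85 ± 1.24 in EpiSCs (SD, n = 4 each; adjusted p = 0.584). That of Wwtr1, chr3:57575709-57576157, had 32.5 ± 3.73 and 30.9 ± 6.48 CPM (adjusted p = 0.768). That of Amotl2, chr9:102717528-102717861, had 22.6 ± 1.03 and 26.9 ± 4.72 CPM (adjusted p = 0.205), and it was called lower without EpiSC replicate 1 (log2 change -0.45, adjusted p = 0.0357) and when scaled by total library size (-0.47, adjusted p = 0.0202). Outside the naming rule, and chosen after the values were seen, a weaker peak within 500 bases of the start was called lower at Yap1 (chr9:8004429-8004529, log2 change -1.10, adjusted p = 0.0424) and at Amotl2 (chr9:102717306-102717391, -1.03, adjusted p = 0.0137). The nearest peak of Lats1 was not called either (adjusted p = 0.918), nor that of Lats2 (adjusted p = 0.331).

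Start peaks were called higher at Tead2, Tead3 and Vgll4, none of which had a higher transcript in DE. The Tead3 peak, chr17:28350846-28351443, had 17.6, 17.0, 22.2 and 18.9 CPM in EpiSC replicates 1, 4, 44 and 51 and 34.0, 29.6, 32.5 and 28.5 CPM in DE replicates 2, 4, 44 and 51, a log2 change of 0.73 (SE 0.16, adjusted p = 0.000575), while the Tead3 transcript fell. Tulp1 starts or ends within 2 kb of that peak. The Tead2 peak, 366 bases after the start, had a log2 change of 1.14 (SE 0.29, adjusted p = 0.00174). The Vgll4 peak had 0.75 (SE 0.24, adjusted p = 0.0108), and its call was lost without DE replicate 4 (adjusted p = 0.0557) and when scaled by total library size (adjusted p = 0.0604).

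Inside the genes, peaks with large gains stood beside peaks with large losses. Within Yap1, chr9:7958173-7958445, 46151 bases into the gene, had 1.28, 1.30, 1.79 and 1.24 CPM in EpiSC replicates 1, 4, 44 and 51 and 14.8, 15.3, 18.9 and 10.4 CPM in DE replicates 2, 4, 44 and 51. Its log2 change was 3.44 (SE 0.31, adjusted p = 1.88e-08), while the Yap1 transcript fell. A neighbouring peak, chr9:7959391-7959602, went from 11.8 ± 1.16 to 4.59 ± 0.70 CPM, a log2 change of -1.34 (SE 0.26). Wwtr1 held a peak at chr3:57540588-57540863 with 1.28, 1.70, 0 and 0 CPM in the EpiSCs and 11.5, 10.7, 13.6 and 7.21 CPM in DE (log2 change 3.60, SE 0.53, adjusted p = 8.67e-06), and another at chr3:57555629-57555914 that fell with -1.52 (SE 0.22).

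Tead1 held a peak at chr7:112781019-112781334 with 0.97 ± 0.43 CPM in EpiSCs and 11.7 ± 4.33 in DE (log2 change 3.56, SE 0.39, adjusted p = 2.03e-07), again against the direction of its transcript. Another, chr7:112720112-112720338, fell as the transcript did, from 11.7 ± 3.68 to 3.49 ± 1.58 CPM (log2 change -1.77, SE 0.34). Of the 25 peaks tested at Tead1, 8 were called higher and 7 lower. Vgll4 held a peak at chr6:114861209-114861460, within 2 kb of Atg7, that fell from 13.2 ± 5.91 to 0.73 ± 0.58 CPM (log2 change -4.01, SE 0.47). At Lats2, chr14:57732755-57733138, 1280 bases after the second annotated start, fell from 17.4 ± 3.37 to 2.10 ± 0.80 CPM (log2 change -3.01, SE 0.30, adjusted p = 6.09e-08), while its transcript was not called. Tead4, whose transcript was low and not called, held a peak at chr6:128265289-128265552 that rose from 4.76 ± 1.32 to 25.2 ± 8.35 CPM (log2 change 2.45, SE 0.27).

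**Figure D4:**
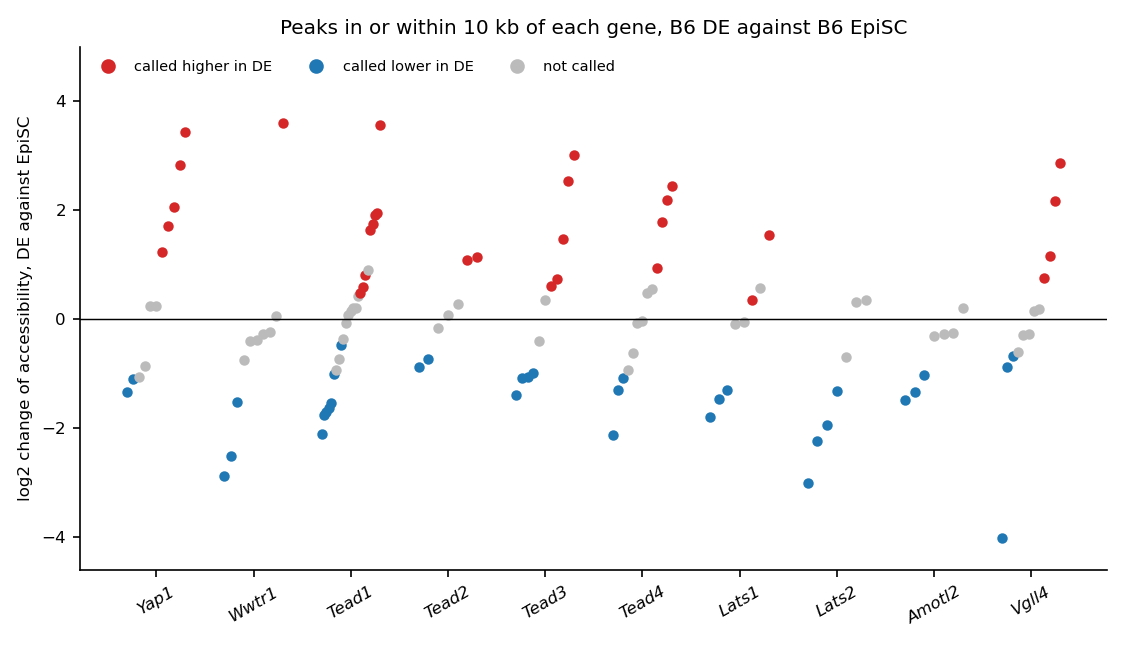
Log2 change of accessibility in B6 DE against B6 EpiSCs (vertical axis) for each of the 111 tested peaks in or within 10 kb of the 10 genes (horizontal axis), with peaks ordered by change within a gene. Called gains (31) and losses (34) occur side by side at most genes; Lats2 and Amotl2 have no called gain.

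Between PWK and B6 EpiSCs, 131 of 147 peaks near the genes were tested, and none was called higher and 8 lower, 6.11% beside 5.11% of all 137667 peaks (3.68% lower, 1.42% higher). None was higher in DESeq2 either, and at an unadjusted p under 0.05 2 were higher and 19 lower. The share of all peaks at that unadjusted p is not given here, so this split cannot be set against a background. Calls over all peaks were also more often lower. The build given in the submitters' processing notes is mm10, a genome of B6, and the part of sequence differences in such losses was not tested. The largest was upstream of Tead2, chr7:45211878-45211990, within 2 kb of Dkkl1, with 0.71 and 0.76 CPM in PWK and 4.20 to 5.78 CPM in B6 (log2 change -2.68, SE 0.55, adjusted p = 0.0094). It kept its call when any 1 of the 6 libraries was left out. A peak in Tead3, chr17:28332092-28332536, within 2 kb of Rpl10a, was lower in PWK (-1.13, SE 0.25, adjusted p = 0.0159) and in DE (-1.08, SE 0.21, adjusted p = 0.000155), each against the same B6 EpiSC cultures by label. The call in PWK was lost without the unnumbered PWK library (adjusted p = 0.0885). The count of lower peaks, 8 in all, was 2 without B6 replicate 1 or 4, 5 without replicate 44, 4 without PWK BioRep698 and 3 without the unnumbered PWK library.

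Amotl2, called lower in RNA of DE and of PWK but not called in F1, had a peak 2522 bases before its start that was lower in both ATAC comparisons. In the EpiSC and DE table, chr9:102715040-102715282 had 19.7, 17.7, 15.3 and 29.7 CPM in EpiSC replicates 1, 4, 44 and 51 and 6.59, 10.2, 10.0 and 4.90 CPM in DE replicates 2, 4, 44 and 51. The groups were separate, with a log2 change of -1.35 (SE 0.26, adjusted p = 0.000154). In the EpiSC table the peak spans chr9:102715040-102715377 and had 11.9 and 9.87 CPM in PWK, 16.8 to 31.1 CPM in B6 and 27.2 CPM in DBA. Its log2 change in PWK was -1.0 (SE 0.27, adjusted p = 0.0422). That call was lost when any 1 of 5 libraries was left out (B6 replicates 1, 4 or 51 or either PWK library, adjusted p up to 0.197), with total library size as the scaling (adjusted p = 0.0651) and with peaks limited to 10 counts in every library (adjusted p = 0.0579). The 2 comparisons share the B6 EpiSC libraries. In the DBA library the Amotl2 transcript was below the B6 range and this peak was not.

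**Figure D5:**
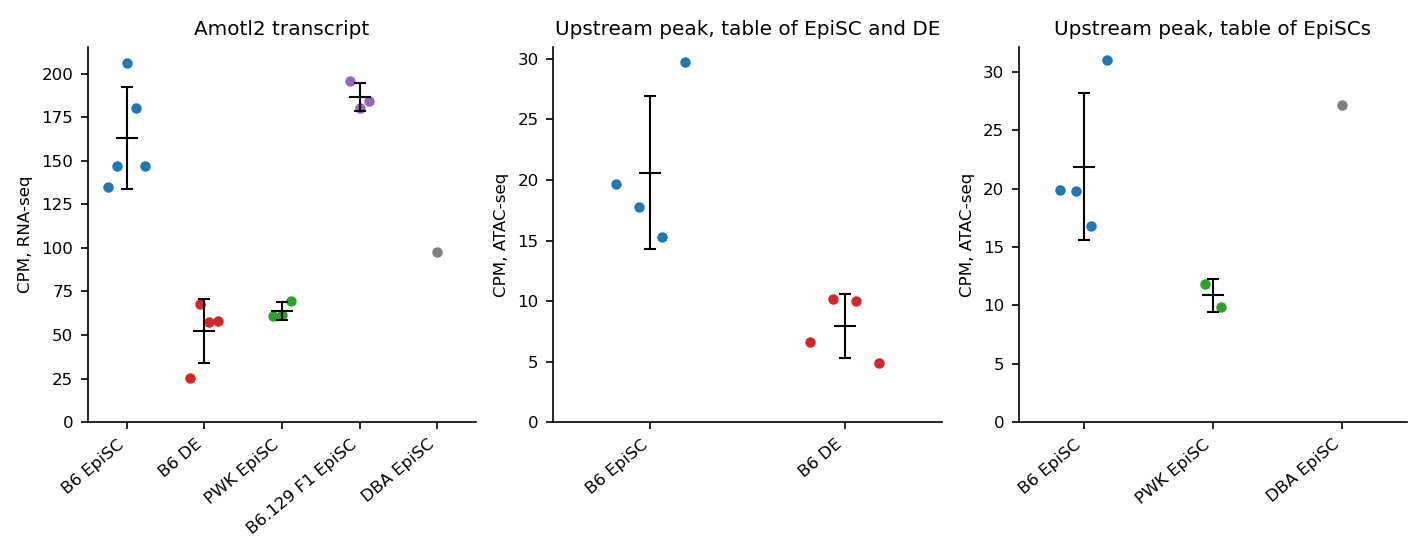
Amotl2 transcript (left, CPM of RNA-seq by group) and its upstream peak in the table of EpiSC and DE (middle) and of EpiSC strains (right, both CPM of ATAC-seq); points are libraries, bars the mean ± SD, axes from 0. DE and PWK libraries lie below all B6 EpiSC libraries in each panel, and the DBA library is below them in RNA only.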

How the data were processed

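RNA was poly(A)-selected and made into stranded TruSeq libraries, per the labels' protocols. The submitters' processing notes name Salmon and featureCounts for RNA, fastp, Bowtie2, MACS2, featureCounts and the build mm10 for ATAC-seq, and DESeq2, without roles. The authors deposited raw counts per gene and per peak; whether peaks were called on pooled samples is not given in the sources used here. Of the EpiSC peak table, 17 columns matched no sample and were not used.

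Counts were fitted with edgeR 4.0.16 in R 4.3.3 (TMM scaling, filterByExpr, robust quasi-likelihood test, Benjamini-Hochberg over all features); SE is the log2 change over the root of F. Levels are CPM on TMM scaling over all 16 RNA libraries or the libraries of a peak table. DE was compared with B6 EpiSCs alone, and PWK and F1 with B6 in 1 fit. The fit was also run on simulated counts with the same relative spread set for every feature. That run does not measure its error rate in these data. No replicate pair agreed within sampling noise (22 RNA and 13 ATAC pairs). Some PWK and F1 columns carry no replicate number and are called unnumbered. Peaks in a gene or within 10 kb were assigned to it. Named from the gene lists were at most 5 called genes per direction with the largest log2 change, from the peaks the one within 500 bases of a start and, per direction, the called peak of at least median accessibility with the largest change, and the 3 genes most like Yap1 and Wwtr1; which libraries to leave out for their feeder level was chosen after seeing the data. The genes and lists were chosen with earlier results of these data known. Alternatives were other scalings, DESeq2 1.42.0, other filters, windows of 2 and 50 kb, a replicate block and each library left out.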

Additional observations from a re-analysis of the deposited data

Results flagged for a closer look

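Among 82 groups of libraries tested, 5 had 1 library whose gap to its nearest neighbour was large against the range of its group; chance gives about 1 in 20. Tead2 stood at 299.7 CPM in B6 EpiSC replicate 1, with the next library at 350.6. In ATAC-seq, B6 EpiSC replicate 44 was highest at the Yap1 peak that rose in DE (1.79 CPM, the next 1.30) and at the Tead3 peak that fell (55.3 CPM, the next 32.8). B6 EpiSC replicate 51 was highest at the Lats1 peak that rose (chr10:7718787-7718977, 4.03 CPM, the next 2.40), and DE replicate 4 at the Lats2 peak that fell (3.29 CPM, the next 1.73). None of these peaks lost its call in DE against EpiSCs when that library was left out.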

How the results depend on the processing

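No result named in the report changed direction while called under any alternative. Of 1036 comparisons of a single gene or named peak with its main value, 989 kept their side of the threshold, 34 lost a call and 13 gained one. Counts of genes or peaks and the paralog ratios are not among the 1036. Counts that moved past 1.5 times the main count under alternatives other than leaving out a library are listed next. In DE against EpiSCs, EpiSC replicates 1 and 4 alone left 4 further pathway genes higher, with no share of all genes given for that fit. In PWK, 2 of the 10 genes were higher with total library size and with DESeq2, and 2 lower against B6 replicates 2, 44 and 51 alone. Targets higher in PWK numbered 2 with total library size, with DESeq2 and against those 3 B6 libraries, and targets lower numbered 3 with no filter. Further pathway genes lower in PWK numbered 1 with RLE scaling, total library size, no filter, 10 counts in every library or only the groups compared, and those higher 2 in the last. In F1, DESeq2 called 2028 genes, 1 of the 10 among them as lower, and the fit of 2 groups alone called 0. With 10 counts in every library, 18012 peaks were called in DE, 18 near the genes higher and 17 lower, and 2110 in PWK, 2 near the genes lower; fewer peaks were tested there (44872 and 68102). Within 50 kb 62 peaks were higher in DE and 1 in PWK, within 2 kb 5 were lower in PWK, and with total library size 4 were. The numbers tested near the genes in these windows and with 10 counts in every library are not given here. Those counts thus cannot be set against a background. Except where named, the cause was not tested.

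Leaving out 1 library at a time gave 2446 to 4904 genes called in PWK, 0 to 1952 in F1 and 3632 to 6781 peaks in PWK. Of the 10 genes it gave 0 to 1 higher and 1 to 2 lower in PWK and 0 to 1 lower in F1, and of the peaks near them 2 to 6 lower in PWK. Of the further pathway genes 1 to 7 were higher and 1 to 3 lower in PWK, and of the targets 0 to 5 higher and 2 to 5 lower. The paralog shifts were 0.76 to 1.02 for Wwtr1 to Yap1, 0.31 to 0.60 for Lats2 to Lats1 (adjusted p 0.0357 without DE replicate 4) and 2.62 to 2.96 for Tead2 to Tead1, all on the log2 scale. An arm left with 1 library takes its spread from the others.

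Replicate numbers shared by B6 EpiSC and DE were used as a replicate block, though deviations of same-numbered RNA libraries correlated at 0.077 to 0.23 and those of ATAC libraries at -0.0075 to 0.040; each RNA library of DE correlated best with its own number. The block called 7731 genes, with the same 6 lower count among the 10 genes, and 54387 peaks, 23 higher and 23 lower near the genes. The number of peaks tested near the genes in that fit is not given here. For PWK and F1, no paired analysis was possible because they share fewer than 2 numbers with B6. Depth limits Tead4, with 59 counts in its lowest B6 library, and the weaker peaks.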
